A study of Homo sapiens with 12 samples.

Results

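MYC and 41 genes of ribosome biogenesis were followed in oral squamous cell carcinoma (OSCC) cells after FAT1 knockdown (FAT1 KD). The genes were listed by symbol as MYC and nucleolar factors of ribosome assembly, with no threshold on a measured value, but the list was drawn up when earlier results of these data were known. Together they made 42 of the 19225 entries of the count table, and each of the 42 was among the 14105 genes with enough counts to be tested. FAT1 encodes a giant protocadherin of the cell surface. HN6 and HN30 are OSCC cell lines, and cells of each were transfected with a scrambled siRNA (NC), with siFAT1-1 or with siFAT1-2, which target FAT1 at different sites, and were harvested after 24 h. Every group, NC included, received the transfection reagent Lipofectamine RNAiMAX, and the labels name no other agent. Each of the 6 conditions was repeated at 2 separate times, which gave 12 poly(A) RNA libraries, 4 for each siRNA and 2 for each siRNA in a line. With 2 libraries per condition, a value within a line rests on a single pair of repeats.

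MYC is a transcription factor that binds DNA as a dimer with MAX, most often at E-box elements, and drives cell growth. Genes for making ribosomes are among its best known targets: the subunits of RNA polymerase I, which transcribes the ribosomal RNA precursor, the nucleolar ribonucleoproteins that modify it, and the factors that fold, cut and export the small and the large ribosomal subunit. In carcinomas, these genes are commonly more active in growing cells, and nucleolar size has long been read as a sign of it.

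The E-box hexamer CACGTG was looked up in the promoters, because it is the element most closely tied to MYC and it reads alike on both strands. Promoter windows of 300 bases, from 250 bases before to 50 bases after the gene start, were taken from RefSeq (GRCh38.p14) and were found for 34 of the 42 genes. The hexamer stood in 14 of these 34 genes (41.2%), against 2396 of 27305 genes with a window (8.77%). The stretches around it are shown for 4 genes with the hexamer, GNL3, WDR43, DDX21 and LYAR. These were higher with siFAT1-2 than with siFAT1-1 at an adjusted p under 0.05 (edgeR). They are also shown for PES1 and IMP4, which carry it and had a difference below 0. The remaining genes with the hexamer, not shown, had a difference above 0 that did not pass. Each is read 5′ to 3′ along the gene, with the hexamer in capitals.
GNL3, chr3:52686026-52686055, plus strand: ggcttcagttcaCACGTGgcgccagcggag
WDR43, chr2:28894658-28894687, plus strand: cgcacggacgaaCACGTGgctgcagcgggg
DDX21, chr10:68956596-68956641, plus strand: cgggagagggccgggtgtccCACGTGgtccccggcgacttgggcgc
LYAR, chr4:4290060-4290105, minus strand: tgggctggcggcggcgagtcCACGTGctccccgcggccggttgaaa
PES1, chr22:30591880-30591909, minus strand: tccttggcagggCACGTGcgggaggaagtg
IMP4, upstream match, chr2:130342674-130342719, plus strand: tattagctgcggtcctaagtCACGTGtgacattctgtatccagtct
IMP4, downstream match, chr2:130342900-130342929, plus strand: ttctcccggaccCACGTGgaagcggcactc
Counted from the RefSeq start of each window, the hexamer follows the start in GNL3, WDR43 and PES1, precedes it in DDX21 and LYAR, and in IMP4 stands once on either side. In GNL3, PES1, DDX21, LYAR and IMP4 that start lies inside the gene as GENCODE bounds it, and is not the outermost start annotated there. A match of letters is a description of the sequence and not a bound site.

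Total counts per library ran from 26430049 to 47639010 and the TMM scaling factors from 0.897 to 1.06. Levels are given as CPM, which are counts relative to the library total, after TMM scaling, and they are shares of a library, so fewer cells of a kind and less RNA per cell cannot be told apart. FAT1 itself was lowered by both siRNAs, with log2 fold changes against NC of -2.0 ± 0.318 for siFAT1-1 (SE, n = 4 against 4, edgeR adjusted p = 0.00653), and of -1.27 ± 0.311 for siFAT1-2 (edgeR adjusted p = 0.0237). Its difference of siFAT1-2 minus siFAT1-1, 0.73 ± 0.307, did not pass an adjusted p under 0.05 (edgeR adjusted p = 0.118). These values are over both lines. In HN6, FAT1 was at 56.8 and 66.7 CPM with NC, 7.61 and 13.5 CPM with siFAT1-1, and 13.2 and 21.4 CPM with siFAT1-2. In HN30 it was at 13.6 and 14.7 CPM with NC, 4.86 and 6.25 CPM with siFAT1-1, and 10.8 and 7.75 CPM with siFAT1-2. With siFAT1-2, FAT1 was therefore nearer to NC in HN30 than in HN6, which was not tested. Repeats of the same condition correlated across genes with an r of log2 CPM of at least 0.945 (HN6 NC) and at most 0.990 (HN30 siFAT1-1). The HN6 NC repeats were also far apart in some of the genes described here, with UTP20 at 30.5 and 8.42 CPM. Of the squamous markers, KRT14 was at 0 in 5 of the 12 libraries, while KRT5 and KRT17 were counted in each.

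The 2 siRNAs gave different levels of the ribosome biogenesis genes although both lowered FAT1. The log2 difference of siFAT1-2 minus siFAT1-1, over both lines, was above 0 in 39 of the 42 genes, with a median of 0.52 against 0.02 over all genes tested. At an adjusted p under 0.05 (edgeR), 10 of the 42 were higher with siFAT1-2, against 7.25% of all genes tested, and 0 were lower, against 9.77% of all genes tested. At an unadjusted p under 0.05, 25 of the 42 were higher with siFAT1-2, against 16% of all genes tested, and 0 were lower, against 17.6%. The 10 genes were DDX18, LYAR, GNL3, NOP16 and WDR12 of the large subunit, WDR43, DDX21 and DDX10 of the small subunit, and the nucleolar proteins NCL and NPM1. The count was lowest without an HN30 siFAT1-1 library: it was 2 without repeat 1 and 4 without repeat 2 of that condition. Calls over all genes tested, in either direction, fell as well in these fits, from 17% to 7.12% and 6.95%. The count of the 42 was 5 without HN30 siFAT1-2 repeat 1 (9.3% of all genes tested called). It was 6 without HN6 siFAT1-1 repeat 1 (9.23%) or repeat 2 (13.1%), or without HN6 siFAT1-2 repeat 2 (17%).

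MYC showed the same order of the siRNAs in either line, but its difference did not pass the test. In HN6, MYC was at 314 and 367 CPM with NC, 256 and 227 CPM with siFAT1-1, and 264 and 336 CPM with siFAT1-2. In HN30 it was at 186 and 232 CPM with NC, 122 and 222 CPM with siFAT1-1, and 243 and 427 CPM with siFAT1-2. Both siFAT1-2 libraries lay above both siFAT1-1 libraries in each line, while against NC the siFAT1-1 libraries were below in HN6 and overlapped in HN30. The log2 difference of siFAT1-2 minus siFAT1-1 was 0.66 ± 0.25 (SE, n = 4 against 4, edgeR adjusted p = 0.0873). A fit that kept the repeat as a block brought the edgeR adjusted p of MYC to 0.0440, past the threshold. For siFAT1-1 against NC, the log2 fold change of MYC was -0.40 ± 0.248 (edgeR adjusted p = 0.404). For siFAT1-2 against NC it was 0.26 ± 0.25 (edgeR adjusted p = 0.528), and it became -0.028 without HN30 siFAT1-2 repeat 2. In GENCODE 44, MYC (ENSG00000136997) lies on chromosome 8 of GRCh38 from 127735434 to 127742951, and its promoter had no window among the sequences used here.

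**Figure D1:**
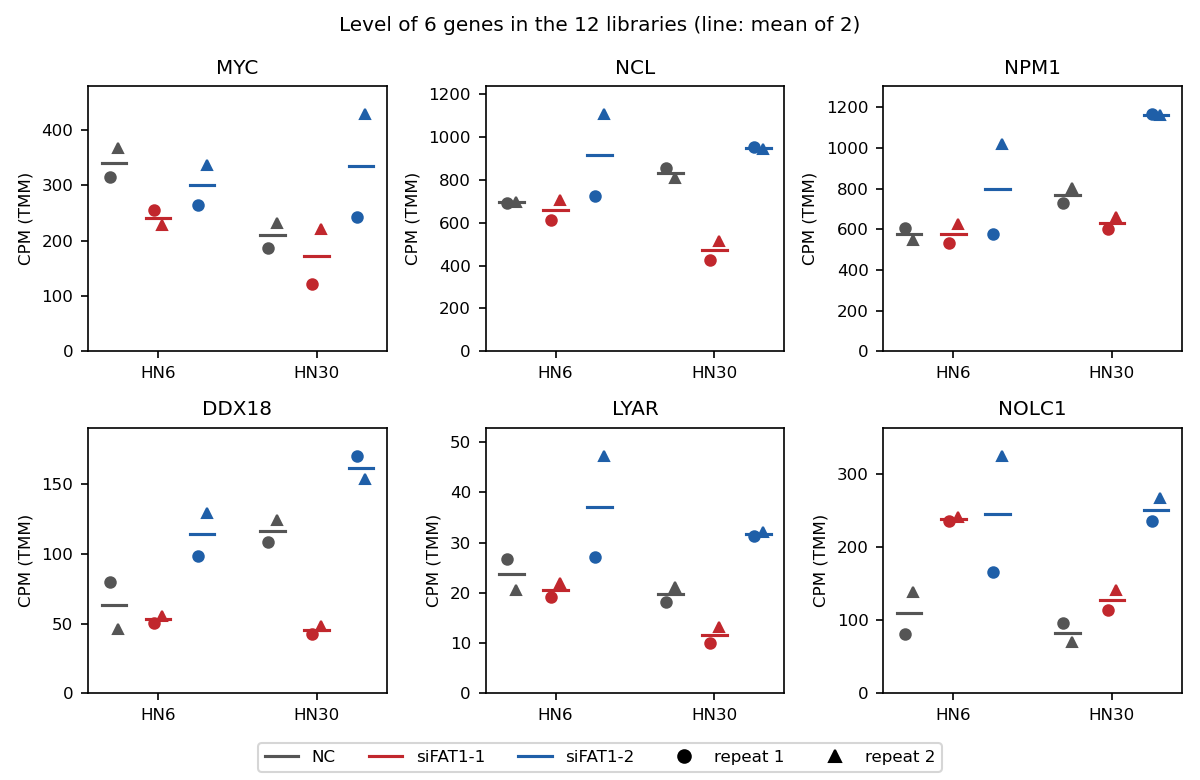
CPM of MYC, NCL, NPM1, DDX18, LYAR and NOLC1 (y axis, linear from 0) in HN6 and HN30 (x axis), with NC in grey, siFAT1-1 in red and siFAT1-2 in blue. Symbols are the 2 repeats and bars their mean, and both siFAT1-2 libraries of HN30 lie above both siFAT1-1 libraries of HN30 in all 6 genes.

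Among the factors of the large ribosomal subunit, DDX18 had the largest difference between the siRNAs. DDX18 is a DEAD-box RNA helicase of the nucleolus, encoded on chromosome 2 from 117814691 to 117832377 (ENSG00000088205). In HN6 its level was 79.9 and 46.5 CPM with NC, 50.5 and 55.6 CPM with siFAT1-1, and 99.0 and 129 CPM with siFAT1-2. In HN30 it was 109 and 125 CPM with NC, 42.7 and 48.7 CPM with siFAT1-1, and 170 and 154 CPM with siFAT1-2. In HN30 the 3 conditions did not overlap, with siFAT1-1 lowest and siFAT1-2 highest, and in HN6 siFAT1-2 stood above the other conditions. The log2 difference was 1.43 ± 0.241 (edgeR adjusted p = 0.00338), and DDX18 stayed past the threshold in each of the 18 alternative settings run.

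LYAR, a zinc finger nucleolar protein, was at 26.8 and 20.7 CPM with NC in HN6, 19.2 and 22.0 CPM with siFAT1-1, and 27.2 and 47.2 CPM with siFAT1-2. In HN30 the LYAR values were 18.3 and 21.2 CPM with NC, 10.1 and 13.2 CPM with siFAT1-1, and 31.2 and 32.2 CPM with siFAT1-2. Both siFAT1-2 libraries were above both NC libraries in each line, and the siFAT1-1 libraries were below NC in HN30 and overlapped it in HN6. The log2 difference was 1.14 ± 0.222 (edgeR adjusted p = 0.00639). GNL3, or nucleostemin, a nucleolar GTP-binding protein whose start carries the hexamer shown above, was at 62.7 and 103 CPM with siFAT1-2 and 45.4 and 61.5 CPM with siFAT1-1 in HN6. In HN30 the GNL3 values were 147 and 157 CPM against 68.2 and 79.9 CPM, with NC between them at 85.6 and 103 CPM. Its log2 difference was 0.83 ± 0.186 (edgeR adjusted p = 0.0118).

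NOP16, a nucleolar protein of large subunit precursors, and WDR12, which forms a complex with PES1 and BOP1, were also higher with siFAT1-2, with log2 differences of 0.79 ± 0.214 and 0.65 ± 0.200 (edgeR adjusted p = 0.0275 and 0.0444). Neither partner of WDR12 passed the test. PES1 had a log2 difference of -0.14 ± 0.220 (edgeR adjusted p = 0.698), and in HN6 both siFAT1-2 libraries, at 145 and 173 CPM, were below the siFAT1-1 libraries, at 246 and 204 CPM. BOP1 had 0.15 ± 0.853 (edgeR adjusted p = 0.924). BOP1 varied too widely for its difference to be read: its NC libraries were at 10.8 and 58.4 CPM in HN6 and at 24.1 and 3.18 CPM in HN30. Of the 17 large subunit genes, 16 had a difference above 0, with a median of 0.48, and 5 passed the test.

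Among the 14 small subunit genes, 12 had a difference above 0, with a median of 0.50, and WDR43, DDX21 and DDX10 passed the test. WDR43, a subunit of the t-UTP complex that couples transcription by RNA polymerase I to early processing, was at 134 and 160 CPM with siFAT1-2 and at 81.5 and 93.0 CPM with siFAT1-1 in HN6. In HN30 the WDR43 values were 135 and 117 CPM against 62.8 and 82.0 CPM. The siRNAs did not overlap in either line, and the log2 difference was 0.77 ± 0.176 (edgeR adjusted p = 0.0126).

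DDX21, a nucleolar RNA helicase, was at 289 and 386 CPM with siFAT1-2, 181 and 183 CPM with siFAT1-1 and 183 and 77.2 CPM with NC in HN6. In HN30 it was at 491 and 490 CPM with siFAT1-2, 259 and 311 CPM with siFAT1-1 and 277 and 335 CPM with NC. Both lines therefore had siFAT1-2 above the other conditions, with a log2 difference between the siRNAs of 0.84 ± 0.245 (edgeR adjusted p = 0.0355). DDX10, another RNA helicase, had 0.95 ± 0.290 (edgeR adjusted p = 0.0421). UTP20, a large scaffold protein of the small subunit processome, had a difference of similar size, 0.96 ± 0.352, that did not pass (edgeR adjusted p = 0.0781). At the other end, IMP4, which binds the U3 snoRNA, and NOC4L, a nucleolar complex protein, had -0.09 ± 0.254 and -0.25 ± 0.186 (edgeR adjusted p = 0.828 and 0.358).

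NCL and NPM1, the nucleolar proteins nucleolin and nucleophosmin, were the members of the ribonucleoprotein group that passed the test. In HN6, NCL was at 694 and 697 CPM with NC, 612 and 705 CPM with siFAT1-1, and 726 and 1104 CPM with siFAT1-2. In HN30, NCL was at 856 and 806 CPM with NC, 426 and 516 CPM with siFAT1-1, and 954 and 945 CPM with siFAT1-2. The siRNAs were therefore separated in either line, though in HN6 by little in repeat 1 of siFAT1-2. The log2 difference was 0.73 ± 0.181 (edgeR adjusted p = 0.0189). NPM1 had 0.67 ± 0.174 (edgeR adjusted p = 0.0225), with 579 and 1019 CPM for siFAT1-2 against 533 and 625 CPM for siFAT1-1 in HN6, where they overlapped, and 1164 and 1160 CPM against 602 and 662 CPM in HN30. FBL, the methyltransferase of box C/D particles, had 0.14 ± 0.273 (edgeR adjusted p = 0.753). The 7 genes of this group had a median of 0.59, and each was above 0. The 3 RNA polymerase I subunits had a median of 0.42, with values of 0.26 to 0.58, and none passed. POLR1C, with the lowest p of them, had 0.42 ± 0.166 (edgeR adjusted p = 0.101), and POLR1A, with the highest, had 0.26 ± 0.226 (edgeR adjusted p = 0.447).

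**Figure D2:**
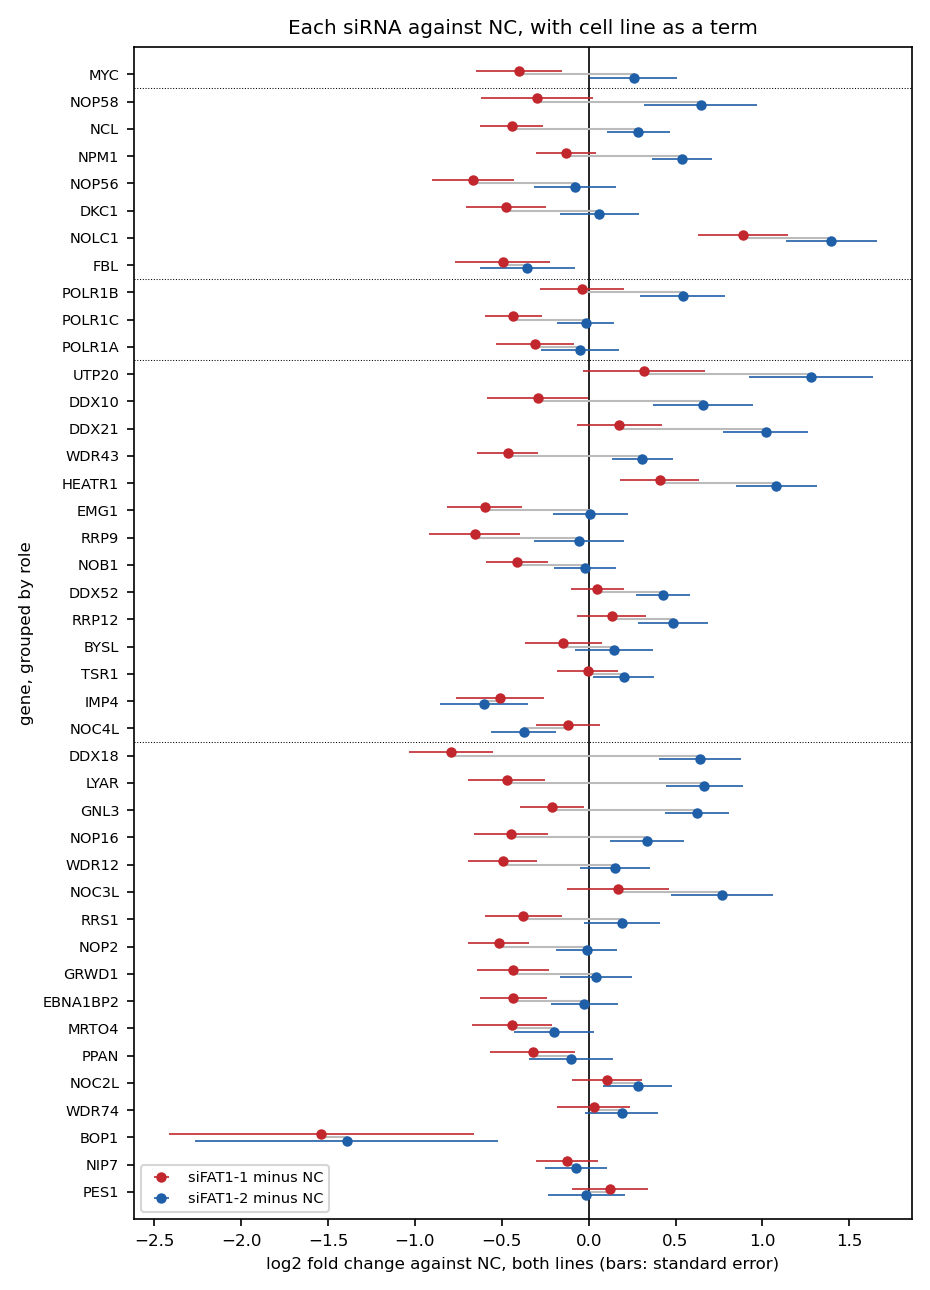
Log2 fold change against NC over both lines (x axis, bars are the standard error) for each gene (y axis, grouped by role), with siFAT1-1 in red, siFAT1-2 in blue and a grey line joining them. The blue point lies to the right of the red point in 39 of 42 genes, and in 18 genes red is below 0 and blue above 0.

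Set against NC, the siRNAs pointed in opposite directions in 18 of the 42 genes (42.9%), with siFAT1-1 below and siFAT1-2 above NC, against 20.7% of all genes tested. These comparisons share the NC libraries. Opposite shifts of the siRNAs were what these genes were set out to describe, so this share, here and within each line, is a description and not a test. The reverse order was seen in 1 gene, PES1, while 14 genes were below NC with both siRNAs and 9 above NC with both. With siFAT1-1, the median log2 fold change was -0.35 over the 42 genes and 0.00 over all genes tested, and 32 of the 42 were below 0. None of the 42 passed an adjusted p under 0.05 in edgeR, against 2.06% of all genes tested that were lower and 1.15% that were higher. DESeq2 called 1 higher, NOLC1, and 1 lower, DDX18, and edgeR called NOLC1 without HN6 siFAT1-2 repeat 1, and DDX18 and WDR43 without HN6 NC repeat 2. At an unadjusted p under 0.05 in edgeR, 11 were lower, against 10.1% of all genes tested, and 1, NOLC1, was higher, against 8.79%.

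With siFAT1-2, the median log2 fold change against NC was 0.19, and 5 of the 42 genes rose (edgeR), against 4.3% of all genes tested. These were NOLC1, UTP20, HEATR1, DDX21 and GNL3, of which NOLC1 and HEATR1 were named after their values were seen. None fell, against 7.3% of all genes tested. At an unadjusted p under 0.05, 13 were higher, against 12.9% of all genes tested, and 1, IMP4, was lower, against 15.8%. The count of 5 became 2 without HN30 NC repeat 1, and 3 without HN6 NC repeat 1, either HN30 siFAT1-1 repeat, either HN30 siFAT1-2 repeat, HN6 siFAT1-1 repeat 1 or HN6 siFAT1-2 repeat 2. UTP20 lost its call with the repeat as a block (edgeR adjusted p = 0.0591, against 0.0393 without it).

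NOLC1, a phosphoprotein that shuttles between nucleolus and Cajal bodies, did not follow the opposite pattern. In HN6 it was at 80.9 and 138 CPM with NC, 235 and 241 CPM with siFAT1-1, and 166 and 324 CPM with siFAT1-2. In HN30 it was at 95.8 and 70.7 CPM with NC, 114 and 142 CPM with siFAT1-1, and 236 and 267 CPM with siFAT1-2. Every FAT1 KD library was above both NC libraries of its line. NOLC1 was 0.89 ± 0.260 above NC on the log2 scale for siFAT1-1 (edgeR adjusted p = 0.0869) and 1.40 ± 0.262 above it for siFAT1-2 (edgeR adjusted p = 0.00823). With both siRNAs averaged as FAT1 KD against NC, the 42 genes had a median of -0.08, and NOLC1 was the single gene that rose, by 1.14 ± 0.235 (edgeR adjusted p = 0.0236), against 1.29% of all genes tested, and 0 fell, against 2.71% of all genes tested. Without HN6 NC repeat 1, HN6 siFAT1-1 repeat 2, HN30 NC repeat 1 or HN30 siFAT1-1 repeat 2 the count was 0, and without HN30 NC repeat 2 the 1 gene called was HEATR1.

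**Figure D3:**
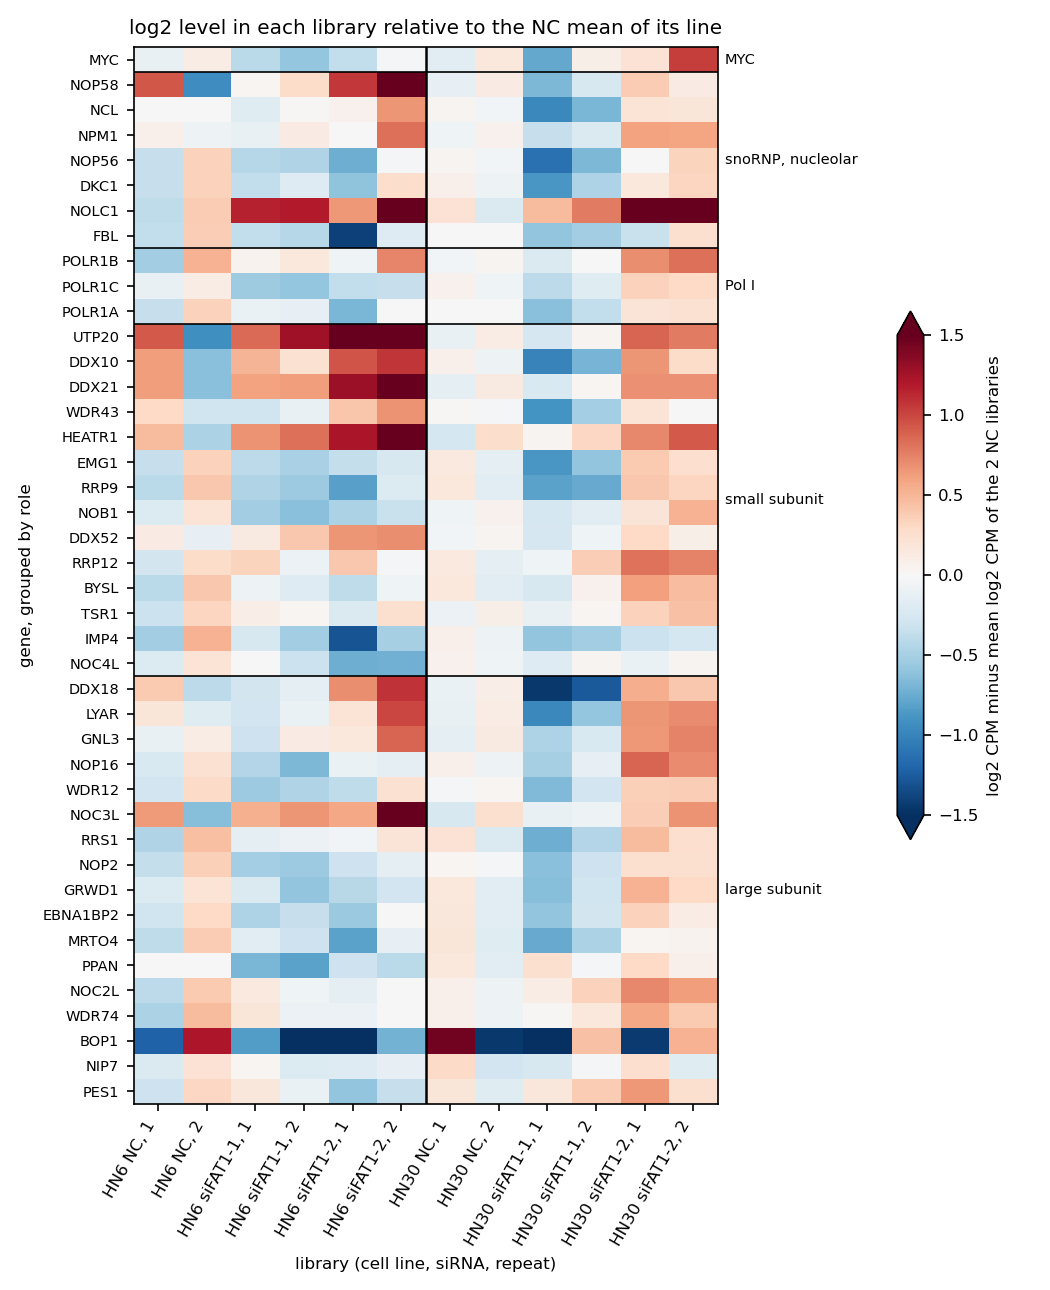
Log2 CPM of each gene (rows, grouped by role) in each of the 12 libraries (columns), minus the mean of the NC libraries of the same line. Blue is below and red above that mean, the scale stops at 1.5 in either direction, and the HN30 columns turn from blue with siFAT1-1 to red with siFAT1-2, while the HN6 columns are mixed.

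The pattern stood out more in HN30 than in HN6. In HN30, the mean over the 42 genes of the log2 level minus NC was -0.49 and -0.19 in the siFAT1-1 libraries, 0.38 and 0.41 in the siFAT1-2 libraries, and 0.06 and -0.06 in the NC libraries. In HN6, it was -0.09 and -0.18 with siFAT1-1, -0.13 and 0.34 with siFAT1-2, and -0.12 and 0.12 with NC. The HN30 conditions did not overlap on this measure, whereas in HN6 the siFAT1-2 repeats lay 0.46 apart and 1 of them fell among the siFAT1-1 libraries. That HN6 siFAT1-2 library of repeat 1 also had the lowest summed level of 14 proliferation markers in its line, 941 CPM against 3336 CPM in repeat 2, and the part of this in the result was not tested. In the summed CPM of the 42 genes, HN30 gave 5075 and 5009 with NC, 3558 and 4300 with siFAT1-1, and 6760 and 6933 with siFAT1-2.

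Within HN30, each of the 42 genes had a higher fitted mean with siFAT1-2 than with siFAT1-1, with a median log2 difference of 0.70, and 7 passed (edgeR), against 3.69% of all genes tested. The 7 were DDX18 (1.83 ± 0.275), LYAR (1.45 ± 0.309), NCL, NOP16, GNL3, EMG1 and RRP9, and EMG1 and RRP9 were named after their values were seen. With the repeat kept as a block, 9 passed within HN30, MYC and NOP56 being added (edgeR adjusted p = 0.0349 and 0.0352), and NOP56 was named after its values were seen. The share of all genes tested that passed in this block fit was not counted. Against NC in HN30, siFAT1-1 lowered DDX18, by -1.36 ± 0.272 (edgeR adjusted p = 0.0447), and no other of the 42, against 0.85% of all genes tested. Within HN6, 31 of the 42 were higher with siFAT1-2, with a median of 0.20, and 0 passed (edgeR), against 0.0696% of all genes tested. At an unadjusted p under 0.05 in HN6, 6 were higher, against 8.02% of all genes tested, and 1, NOC4L, was lower, against 9.88%.

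Tested as an interaction, the difference between the siRNAs did not differ between the lines in any of the 42 genes at an adjusted p under 0.05 (edgeR). Over all 14360 genes tested, 0 passed as well, so the 0 is no trait of the 42. The HN30 minus HN6 value of this difference was above 0 in 35 of the 42, with a median of 0.55, against -0.0026 over all genes tested. At an unadjusted p under 0.05, 5 of the 42 had a larger difference in HN30, against 5.96% of all genes tested in either direction. They were NOP56, POLR1A, RRP9, EMG1 and GRWD1, and apart from POLR1A they were named after their values were seen. RRP9, a protein of the U3 particle, was the widest, with a log2 difference of 1.15 ± 0.305 in HN30 and 0.02 ± 0.301 in HN6. The lines are therefore described side by side and were not shown to differ in any single gene.

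**Figure D4:**
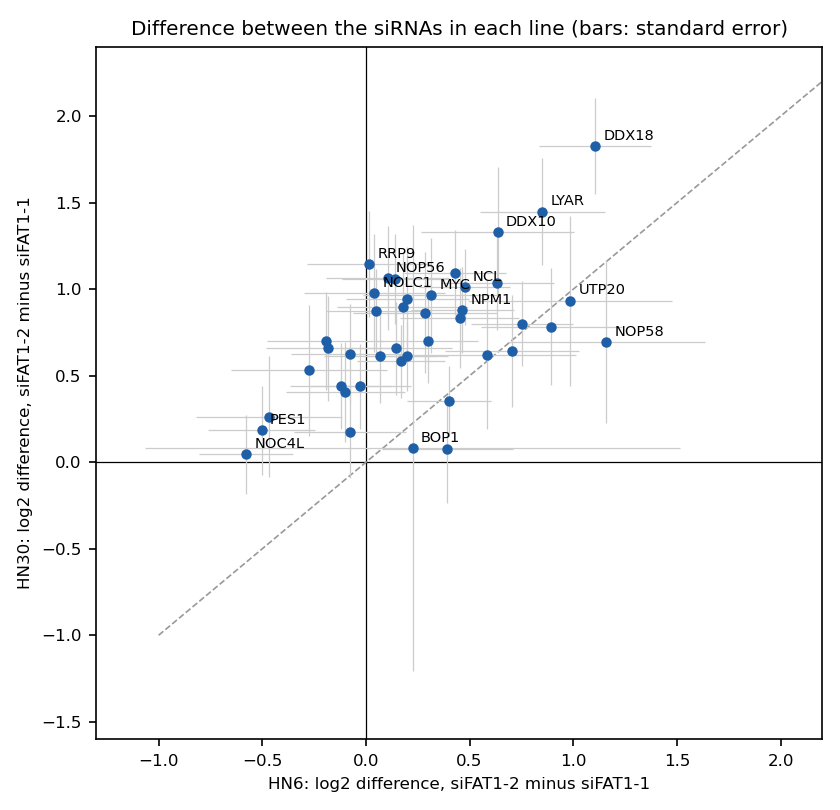
Log2 difference of siFAT1-2 minus siFAT1-1 in HN6 (x axis) and in HN30 (y axis) for each of the 42 genes, with standard errors as grey bars and the line of equal values dashed. Each point is above 0 on the HN30 axis, while 11 are below 0 on the HN6 axis, NOC4L and PES1 among them.

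The library values tell the same in counts. In HN30, both siFAT1-2 libraries were above both siFAT1-1 libraries in 37 of the 42 genes, against 32.6% of all genes tested. In HN6, this held for 20 of the 42, against 25.7% of all genes tested, and in both lines at once for 19, against 15.8% of all genes tested. In HN30, 19 genes had both siFAT1-1 libraries below and both siFAT1-2 libraries above both NC libraries, against 6.64% of all genes tested. In HN6, 0 genes did, against 1.05% of all genes tested. By the sign of the fitted fold changes, siFAT1-1 below and siFAT1-2 above NC was found in 31 of 42 genes in HN30 (73.8%, against 21% of all genes tested) and in 7 of 42 in HN6 (16.7%, against 16.1%).

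Further ribosome biogenesis genes that were not among the 42 were described in 5 lists, with median log2 differences between the siRNAs of 0.19 to 0.61. Over all genes tested, 7.25% were higher and 9.77% lower between the siRNAs at an adjusted p under 0.05 (edgeR). Of 39 other small subunit factors, 15 were higher with siFAT1-2 than with siFAT1-1 and 0 lower (edgeR), with a median of 0.56. The leading ones were AATF (1.99 ± 0.228, edgeR adjusted p = 0.000687), a nucleolar factor that was also far below NC with siFAT1-1 (-2.36, edgeR adjusted p = 0.000504), and WDR75 (0.88 ± 0.156, edgeR adjusted p = 0.00408). Of 43 other large subunit factors, 20 were higher and 0 lower, with a median of 0.55, led by RPF2 (1.44 ± 0.163, edgeR adjusted p = 0.000687) and RSL1D1 (0.71 ± 0.132, edgeR adjusted p = 0.00547). Of 12 other RNA polymerase I factors, 2 were higher, POLR1D (0.86 ± 0.157) and TTF1 (0.77 ± 0.239), with a median of 0.61. All 15 genes of the RNA exosome, which trims the rRNA precursor, had a difference above 0, with a median of 0.56. In edgeR 0 passed, while 7 were higher at an unadjusted p under 0.05, against 16% of all genes tested. EXOSC3 (0.71 ± 0.230, edgeR adjusted p = 0.0534) and EXOSC1 (0.53 ± 0.182, edgeR adjusted p = 0.0610) led them. Of 10 other snoRNP factors, NUFIP1 was higher (0.82 ± 0.191) and PIH1D1 lower (-0.68 ± 0.168), and the median was 0.19.

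**Figure D5:**
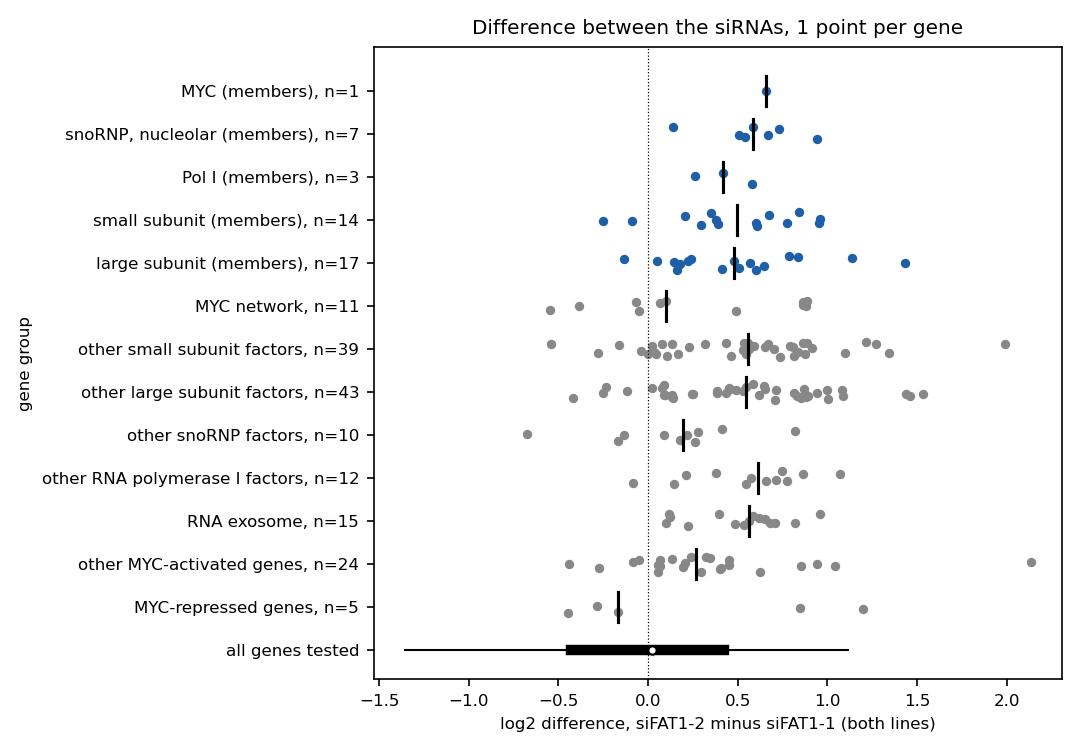
Log2 difference of siFAT1-2 minus siFAT1-1 over both lines (x axis), with 1 point per gene and a black bar at the median, for the 42 genes by role (blue) and for further gene lists (grey). The bottom row gives all genes tested as the median (circle), the middle 50% (thick) and the middle 90% (thin), and the medians of the assembly factors, RNA polymerase I and exosome lists lie to the right of it.

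Other genes tied to MYC were described in 3 lists, which were not tested against the 42. Beside the counts of these lists, 7.25% of all genes tested were higher and 9.77% lower between the siRNAs at an adjusted p under 0.05 (edgeR). In the MYC network, 2 of 11 genes tested were higher and 1 lower, with a median of 0.10. MAX, the dimer partner of MYC, was higher (0.86 ± 0.185, edgeR adjusted p = 0.00960), MXI1, which also pairs with MAX, was higher (0.88 ± 0.282, edgeR adjusted p = 0.0496), and MLXIP was lower (-0.55 ± 0.126, edgeR adjusted p = 0.0133). MXI1 was named after its value was seen, as were PAICS, GDF15 and TIGAR in the lists that follow. Of 24 other genes that MYC is known to activate, 20 had a difference above 0, with a median of 0.27. By the test 3 of the 24 were higher, against 7.25% of all genes tested. Within HN30, 22 of the 24 were above 0, with a median of 0.48. ODC1, the rate-limiting enzyme of polyamine synthesis, had 2.13 ± 0.186 (edgeR adjusted p = 0.00017), and unlike any of the 42 genes over both lines it passed against NC with both siRNAs, at -1.04 for siFAT1-1 (edgeR adjusted p = 0.00972) and at 1.1 for siFAT1-2 (edgeR adjusted p = 0.00490). PHB2, a prohibitin of the inner mitochondrial membrane, had 0.85 ± 0.206 (edgeR adjusted p = 0.0169), and PAICS, an enzyme of purine synthesis, 1.04 ± 0.316 (edgeR adjusted p = 0.0413). Of 5 genes that MYC is known to repress, CDKN2B was higher (1.2 ± 0.342, edgeR adjusted p = 0.0332), CDKN1A had 0.85 ± 0.663 (edgeR adjusted p = 0.392), and the median was -0.17.

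Lists of other states moved with the siRNAs as well, and their part in the result was not tested. Between the siRNAs, 7.25% of all genes tested were higher and 9.77% lower at an adjusted p under 0.05 (edgeR). The proliferation markers had medians of -0.97 with siFAT1-1 and -0.60 with siFAT1-2 against NC, and none of the 14 passed between the siRNAs (edgeR, MCM6 at 1.08 with adjusted p = 0.0969 and PCNA at 0.65 with adjusted p = 0.253). In HN30, their summed level was 3505 and 3217 CPM with NC, 920 and 1140 CPM with siFAT1-1 and 1118 and 2290 CPM with siFAT1-2, so both siRNAs were below NC. Between the siRNAs within HN30, all 14 were nevertheless higher with siFAT1-2, with a median log2 difference of 0.60, beside 42 of 42 and 0.70 for the ribosome biogenesis genes, and within HN6 5 of the 14 were higher, with a median of -0.35. The p53 targets had a median difference between the siRNAs of 0.95, with 3 of 12 higher, ZMAT3 (2.65 ± 0.606, edgeR adjusted p = 0.0133), GDF15 and TIGAR, and 1 lower, PLK3 (-1.26 ± 0.238, edgeR adjusted p = 0.00582). Their summed level was highest in HN30 siFAT1-2 repeat 1, at 5874 CPM against 594 to 2028 CPM in the other 11 libraries. CDKN1A alone made up 4000 CPM of that highest sum. The squamous markers had a median difference of -1.29, with 5 of 10 lower with siFAT1-2, led by SFN (-1.86 ± 0.206, edgeR adjusted p = 0.000589) and KRT17 (-2.82 ± 0.396, edgeR adjusted p = 0.00144). Their summed level was 4249 to 6905 CPM with siFAT1-1, 2405 to 3598 CPM with siFAT1-2 and 2593 to 4052 CPM with NC. On this measure siFAT1-2 overlapped NC, while siFAT1-1 lay above it. Of 10 fibroblast, endothelial and immune markers, 4 had enough counts to be tested. VWF, at only 4 to 47 counts a library, and PDGFRB were lower with siFAT1-2. COL1A1 (-0.13, edgeR adjusted p = 0.789) and CD68 (0.44, edgeR adjusted p = 0.218) did not pass. Both were counted in every library, COL1A1 at up to 146 CPM and CD68 at up to 121 CPM, while the leukocyte marker PTPRC had at most 1 count in a library. COL1A1 and CD68 were named after their values were seen.

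The hexamer did not separate the genes that passed the test between the siRNAs from the others. Of the 10 genes that passed, 9 had a promoter window and 4 of these held CACGTG (44.4%), as did 10 of the 25 other genes with a window (40%). The median log2 difference of siFAT1-2 minus siFAT1-1 was 0.55 in the 14 genes with the hexamer and 0.51 in the 20 without it. Among the further lists, it was found in 14 of 34 other small subunit factors (41.2%), 9 of 38 other large subunit factors (23.7%), 2 of 7 other snoRNP factors (28.6%), 1 of 11 other RNA polymerase I factors (9.09%), 2 of 13 exosome genes (15.4%) and 12 of 23 other MYC-activated genes (52.2%).

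Some of the counts may hold reads of other loci, since the strand and multi-mapping settings of the counting were not given in the sources used here. In GENCODE 44, 10 of the 42 genes have an annotated pseudogene, NPM1 with 49 and DDX18 with 5, and 16 share exonic bases with another protein-coding gene, among them NOP16, WDR12 and GNL3. Counts were lowest in BOP1, with 53 in its lowest library, and PPAN, with 68, so that no gene of the 42 was limited by a count near 0.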

How the data were processed

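Poly(A) RNA was sequenced from 12 libraries of HN6 and HN30 cells. Before mapping to hg38, the authors discarded duplicated reads and reads of poor quality or with runs of N. They deposited raw, unnormalized counts per gene, 1 column per library. The submitters' processing notes name HISAT2 and featureCounts, and versions, annotation and strand setting are not given in the sources used here. Removing duplicated reads can hold down the counts of highly expressed genes. The titles of the libraries call the siRNAs sh1 and sh2 and their descriptions siRNA-1 and siRNA-2, taken here as siFAT1-1 and siFAT1-2. In the table, 27 gene symbols had been turned into dates, none of them a member. Columns of per-sample values left unused numbered 0.

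Counts were tested with edgeR 4.0.16 in R 4.3.3 (quasi-likelihood test with glmQLFit and glmQLFTest, TMM scaling, genes kept by filterByExpr at a minimum count of 10) on all 12 libraries, with cell line and siRNA as terms, or with 1 mean for each of the 6 conditions for values within a line and for the interaction (14360 genes tested). P-values were adjusted by Benjamini-Hochberg over all genes tested, and the threshold was 0.05. The common dispersion was 0.0996. Standard errors were derived from the F statistic, fold changes used a prior count of 0.125 and log2 CPM a prior count of 2. Total counts per library were 26430049 or more, so the precision of a gene was set mostly by the repeats. The study fitted its counts with limma-voom (limma 3.58.1 here), which was run as an alternative, as were DESeq2 1.42.0, its size factors, no filter, no cell line term, a replicate block and leaving out each library. The fits were tested on simulated data. Promoter windows came from RefSeq (GRCh38.p14), coordinates from GENCODE 44, and tables of sequence and figures were made with Python 3.11.15, pandas 2.3.3, numpy 2.4.6 and matplotlib 3.10.9.

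The members, the role groups and the 12 lists of other genes were chosen with earlier results of these data known, and 7 list genes were found under an older symbol. Named genes were MYC, FAT1, the members past the threshold between the siRNAs, the members with the smallest and the largest p in each role group, the 3 highest and 3 lowest by log2 difference, and the 2 with the smallest p in each other list. Repeat numbers mark separate times per the labels, which do not say that libraries of the same number were handled together. The replicate block takes them as pairs within a line. Deviations from the condition mean, compared between libraries of the same number, correlated across genes at 0.0747, 0.217 and 0.233 in HN6 and at -0.0293, 0.401 and -0.0203 in HN30 (NC with siFAT1-1, NC with siFAT1-2, siFAT1-1 with siFAT1-2). P-values within a line and of the interaction measure the spread between these repeats of cultured lines. Those over both lines also take in how far the siRNA differences vary between the lines.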

Additional observations from a re-analysis of the deposited data

How the results depend on the processing

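Between the siRNAs, the count of members higher with siFAT1-2 was 10 with DESeq2's size factors and with limma-voom. Of all genes tested, these fits called 17.1% and 19.1% in either direction, against 17% in the main fit. The count was 9 without the filter on low counts (WDR12 lost, 13.1% of all genes called) and 15 with the DESeq2 Wald test (25.5%). It was 1 (DDX18) without the cell line term, where 2.06% of all genes tested were called. Leaving out 1 library at a time gave 2 to 15 members higher and 0 lower, with medians of 0.41 to 0.71. Of all genes tested, 6.95% to 23.2% were called in these fits. The same fits gave 0 to 1 higher, 0 to 2 lower and medians of -0.44 to -0.25 for siFAT1-1 against NC, 2 to 6 higher, 0 lower and medians of 0.07 to 0.31 for siFAT1-2 against NC, 0 to 1 higher, 0 lower and medians of -0.10 to -0.02 for FAT1 KD, and 14 to 27 members below NC with siFAT1-1 and above it with siFAT1-2. With the DESeq2 Wald test 1 member was higher and 1 lower for siFAT1-1, 8 were higher for siFAT1-2 and 2 for FAT1 KD. With limma-voom 2 were higher for FAT1 KD, and without the cell line term 0 were higher for siFAT1-2 and 0 for FAT1 KD. The shares of all genes called were not counted for these alternative fits against NC. Within HN30, a fit on that line alone called 21 members higher in place of 7. The share of all genes was not counted in that fit either, so the 21 has no background beside it. The cause of these shifts was not tested.

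With the replicate block, 11 members were higher between the siRNAs, MYC being added, and 17.4% of all genes tested were called. BOP1 then had a log2 difference of -0.14 in place of 0.15. Beside MYC and the loss of UTP20 for siFAT1-2 against NC, the block changed no call of a named member in the comparisons of the siRNAs over both lines. Signs turned in members near 0 when 1 library was left out: between the siRNAs, BOP1 ranged from -0.42 to 0.76, FBL from -0.081 to 0.41, IMP4 from -0.19 to 0.12 and PES1 from -0.32 to 0.015, and against NC, MYC ranged from -0.028 to 0.42 for siFAT1-2 and from -0.21 to 0.040 for FAT1 KD. Depth was no limit for the members, and the 2 repeats per condition were: with 2 libraries, no single sample could be checked as far from its group.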
